A study of Mus musculus with 9 samples.

Results

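The transcripts of 10 transcription factors were followed across WT LLC cells and a pair of CD47 KO clones: Myc, Mycn and Mycl of the MYC family, the Kruppel-like factors Klf4 and Klf2, the SOX factors Sox2, Sox9 and Sox4, and Pou5f1 (OCT4) and Nanog. They were taken by symbol from the deposited count table, 10 of its 50813 genes, because loss of CD47 has been described to raise such factors in other cells. LLC is a Lewis lung carcinoma line of the mouse, here stably expressing luciferase and grown in DMEM with serum, and RNA-seq covered 9 libraries: 3 from the WT line, 3 from a CD47 KO clone named E3 and 3 from another named E5. The clones were made by electroporation of a Cas9 ribonucleoprotein against Cd47. Since a single WT line and 1 clone per KO were used, the genotype and the history of a clone cannot be told apart, and the p-values measure the spread between libraries of a line. In bulk RNA, fewer cells that express a gene and less RNA per cell cannot be told apart either.

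MYC is a basic helix-loop-helix leucine zipper protein that dimerizes with MAX, binds E-boxes and drives genes of ribosome production, nucleotide synthesis and growth, while MXD proteins and MNT compete for MAX and oppose it. MYCN and MYCL act in the same way in more restricted tissues. OCT4, SOX2 and NANOG are the core of the network that keeps embryonic stem cells pluripotent, and OCT4, SOX2, KLF4 and MYC together reprogram differentiated cells, whereas SOX9 and SOX4 are progenitor factors of many epithelia and mesenchymal tissues and KLF2 is best known from endothelium and T cells.

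Myc was the most abundant of the 10 in every line and was 2.8-fold lower in clone E3 than in WT cells, while in clone E5 it was not called different. Klf4 was lower in both clones, by 2.49-fold in E3 and 2.6-fold in E5. Sox9 was lower in clone E3 than in both WT and E5, Klf2 was higher in clone E5 by a call that several alternatives lost, and Mycn was counted at a low level in clone E3 and hardly at all elsewhere. Pou5f1, Nanog and Sox2 were at or near 0 in all 9 libraries. No member was called higher in both clones. Only 6 members were tested, and of all genes tested 15.7% were called higher in E3 and 8.96% in E5, so this count says little about these factors.

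The sequences upstream of the members with the largest differences are shown to place the motifs of the factors themselves. They are the 250 bases before the transcription start of the canonical GENCODE transcript in GRCm39, written 5′ to 3′ on the strand of the gene, with matches to an E-box (CACGTG), a KLF box (CACCC), a SOX box (AACAAT) or an octamer (ATGCAAAT) in capitals on either strand. The window of Myc lies at chr15:61856977-61857226 on the plus strand, that of Mycn at chr12:12991916-12992165 on the minus strand and that of Klf4 at chr4:55532467-55532716 on the minus strand.
Myc: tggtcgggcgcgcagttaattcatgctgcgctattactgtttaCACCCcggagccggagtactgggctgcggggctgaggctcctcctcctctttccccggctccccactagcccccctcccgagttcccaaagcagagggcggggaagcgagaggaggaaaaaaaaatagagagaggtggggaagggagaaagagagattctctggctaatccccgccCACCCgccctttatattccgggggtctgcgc
Mycn: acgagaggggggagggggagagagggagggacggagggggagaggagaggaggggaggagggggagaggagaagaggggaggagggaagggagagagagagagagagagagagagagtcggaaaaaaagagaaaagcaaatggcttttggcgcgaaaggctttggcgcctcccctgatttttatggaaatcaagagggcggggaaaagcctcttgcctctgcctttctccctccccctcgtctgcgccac
Klf4: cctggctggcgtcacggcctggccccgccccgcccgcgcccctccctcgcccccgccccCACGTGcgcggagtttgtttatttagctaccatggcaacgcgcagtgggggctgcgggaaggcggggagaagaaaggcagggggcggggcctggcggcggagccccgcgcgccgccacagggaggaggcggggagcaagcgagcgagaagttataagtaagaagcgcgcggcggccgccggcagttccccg

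The Klf4 sequence held 1 E-box, 191 bases before the start (-191), and it was the only one of the 10 members to hold this motif in the window, which 6.26% of 21770 promoters of protein-coding genes held. The Myc sequence held 2 KLF boxes, at -207 and -31, and the Mycn sequence held none of these motifs. A KLF box stood in 52.9% of all promoters, a SOX box in 9.67% and an octamer in 1.49%. The KLF box at -31 of Myc overlapped GC boxes (GGGCGG on either strand) at -36 and -28, and a TATA box (TATAAA on either strand) began at -22. Klf4 held 4 GC boxes and Mycn held 1, against 36.3% of all promoters with at least 1. The GC content was 73.6% in the Klf4 window, 60.4% in that of Myc and 59.2% in that of Mycn, against a median of 53.2% for all promoters. Such a match is a run of letters and not a measured binding site.

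The libraries held 44257404 to 55095219 counts, with a median of 47574047. Replicate 3 of clone E3 stood apart: its counts differed from those of the other E3 libraries by a chi-square over its degrees of freedom of 172 and 208, against 4.49 to 35.4 for the other pairs of replicates. The members' calls that rest on clone E3, the counts of called genes in each list and the values of several named genes are therefore given without that library too. Leaving it out, more of all genes were called. In E3 against WT 21.8% were then called higher and 21.5% lower, and in E5 against WT 20.8% and 21.2%. The list counts made without that library stand beside those shares. The targeted gene Cd47 was lower in each clone. It had 187, 179 and 182 CPM in WT cells (CPM, counts scaled to a common library size with TMM normalization), 47.4, 36.7 and 49.6 in clone E3 and 15.5, 18.6 and 18.1 in clone E5. The source of the cells is labelled lung adenocarcinoma. Of 12 epithelial and lung markers, 6 had at most 3 counts in every library, among them Nkx2-1, Sftpc, Sftpb and Epcam. Krt8, Krt18 and Ocln had 191, 264 and 12 CPM in WT cells. Of the mesenchymal markers, Vim had 4166 CPM and Fn1 1929 in WT cells, whereas Col1a1 had 1.67 and Col1a2 0.291. Of 8 leukocyte markers, 5, among them Ptprc (CD45), had at most 3 counts in every library, and the 6 endothelial markers summed to 0.185 to 0.48 CPM.

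Counts were compared with edgeR's quasi-likelihood test in 1 fit of the 3 lines, and a gene is called different at an adjusted p under 0.05 (Benjamini-Hochberg over all 14593 genes tested). Of the 10 members, 6 passed the filter on low counts: Myc, Mycn, Klf4, Klf2, Sox9 and Sox4. In clone E3 against WT, 4 members were called, of which 1 was higher (Mycn) and 3 lower (Myc, Klf4 and Sox9), where 30.5% of all genes tested were called, 15.7% higher and 14.7% lower. Against WT, 2 members were called in clone E5, Klf2 higher and Klf4 lower, where 20.6% of all genes were called, 8.96% higher and 11.7% lower. Between the clones, 4 members were called: Myc and Sox9 were higher in E5, and Mycn and Sox4 were lower, where 31.9% of all genes were called, 14.7% higher and 17.2% lower. With the study's further demand of an absolute log2 fold change above 1, the members called were 3 in E3 (9.82% of all genes), 1 in E5 (8.21%) and 2 between the clones (11%). Mycn passed the filter only through clone E3, where it was counted, so it had to differ and its call is no support of its own. The comparisons of the clones with WT share the WT libraries.

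**Figure D1:**
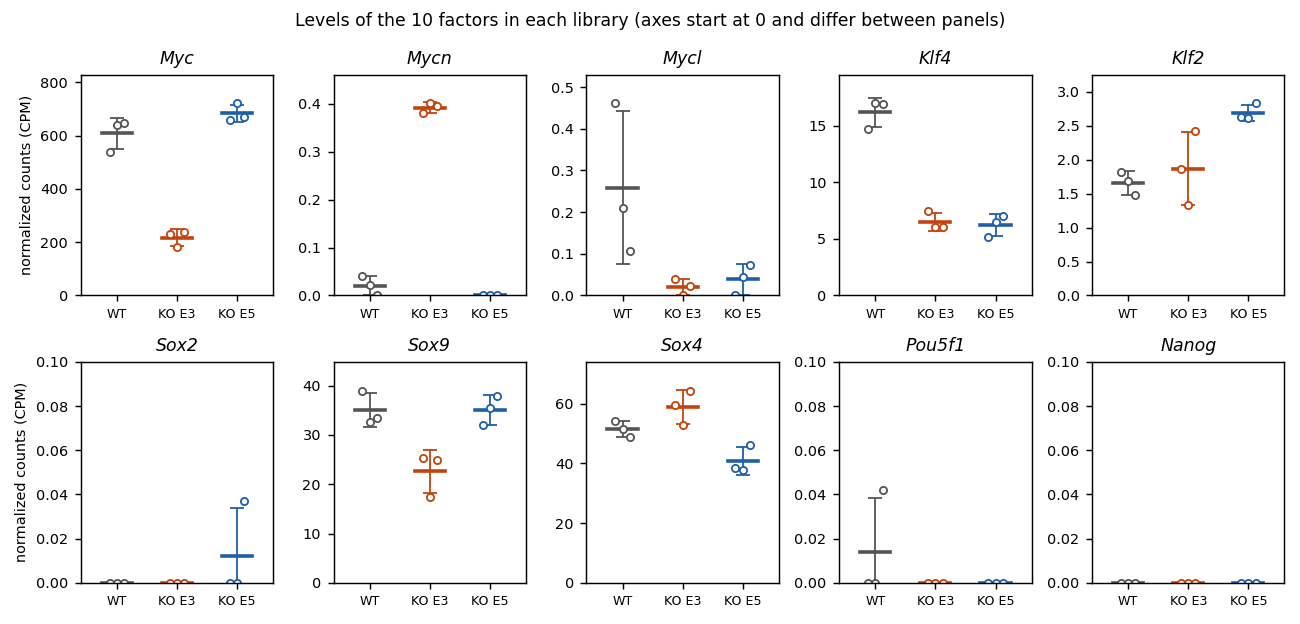
Normalized counts (CPM) of the 10 factors in each of 9 libraries, 3 per line. Open circles are libraries, horizontal lines are means and bars are SDs over 3 libraries, and each axis starts at 0. The 3 E3 libraries lay between 182 and 239 CPM for Myc, below every WT and E5 library, and for Klf4 all 6 KO libraries lay below the 3 WT libraries.

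In the MYC family, Myc (ENSMUSG00000022346, chr15:61857240-61862223) had 540, 638 and 646 CPM in the 3 WT libraries. In clone E3 it had 230, 182 and 239 CPM, and in clone E5 it had 658, 721 and 671. All E3 libraries lay below all WT libraries, and all E5 libraries lay just above the highest WT library. Myc thus averaged 608 ± 58.5 CPM in WT cells, 217 ± 30.8 in clone E3 and 683 ± 33.1 in clone E5 (SD, n = 3). Its log2 fold change in clone E3 against WT was -1.48 (95% confidence interval -1.76 to -1.20; adjusted p = 3.01e-05 in edgeR), and -1.56 without replicate 3 of clone E3. In clone E5 against WT it was 0.17, with an interval from -0.11 to 0.44 and an adjusted p of 0.383 in edgeR. That interval does not reach the value of clone E3. E5 exceeded E3 by 1.65 on the log2 scale (adjusted p = 7.07e-06 in edgeR), a 3.15-fold higher level in E5, and by 1.74 without replicate 3 of E3.

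Mycn (ENSMUSG00000037169, chr12:12986094-12991915), which is best known from neural progenitors and neuroblastoma, was counted 19, 19 and 18 times in the E3 libraries. It was counted 2, 1 and 0 times in the WT libraries and 0 times in each E5 library. The level in clone E3 was 0.392 ± 0.0112 CPM (SD, n = 3), which is low beside that of Myc but alike in all 3 libraries, replicate 3 included. The summed counts of 56 in E3 and 3 in WT gave a ratio of 18.9, with an exact 95% interval for counting error of 6.15 to 94.6. Against the floor of 3 counts over the E5 libraries, clone E3 was at least 19.2-fold higher than clone E5. The adjusted p in edgeR was 0.00111 for E3 against WT and 0.00037 for E5 against E3.

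Mycl (ENSMUSG00000028654, chr4:122889445-122896278) had 23, 10 and 5 counts in WT cells, 2, 0 and 1 in clone E3 and 0, 2 and 4 in clone E5. The 3 WT libraries thus spread widely, although each was above every KO library. Mycl did not pass the filter on low counts. Its summed counts of 38 in WT cells were 12.5 times those of E3 after scaling for depth (exact interval 3.96 to 63.2) and 6.41 times those of E5 (2.69 to 18.6), counting error only. In a fit with no filter it was called lower in both clones. Per kb of exon, Myc made up 99.97% of the level of the 3 MYC genes in WT cells and 99.89% in clone E3.

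Of the KLF factors, Klf4 (ENSMUSG00000003032, chr4:55527143-55532466), a factor of barrier epithelia that also serves in reprogramming, had 14.7, 17 and 16.9 CPM in WT cells. It had 7.44, 6.02 and 6.05 CPM in clone E3 and 5.13, 6.53 and 7.03 in clone E5. The KO libraries overlapped with each other and all lay below the WT libraries. Klf4 changed by a log2 fold of -1.32 in clone E3 (interval -1.64 to -0.99; adjusted p = 0.000155 in edgeR) and -1.38 in clone E5 (-1.70 to -1.05; adjusted p = 0.000105). Without replicate 3 of E3 the value in that clone was -1.27. The difference between the clones was -0.06, with an interval from -0.39 to 0.27.

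Klf2 (ENSMUSG00000055148, chr8:73072877-73075500) had 1.82, 1.68 and 1.48 CPM in WT cells, 1.86, 1.33 and 2.42 in clone E3 and 2.63, 2.62 and 2.83 in clone E5. The E5 libraries were higher than all others, and the E3 libraries spread over the range of WT cells and beyond it, with replicate 3 the highest. In clone E5 the log2 fold change was 0.70 (interval 0.23 to 1.17; adjusted p = 0.042 in edgeR). Of 17 alternatives, 7 kept the call. Among these were DESeq2 (adjusted p = 0.0127), only the 2 groups compared (adjusted p = 0.0029 in edgeR) and the fit without replicate 3 of E3 (adjusted p = 0.00558 in edgeR). This call was lost with the replicate number as a block (adjusted p = 0.0713), with upper-quartile scaling (adjusted p = 0.0675) and when any WT or E5 library or replicate 1 of E3 was left out (0.0543 to 0.146), while the value stayed between 0.62 and 0.77 over all alternatives. In clone E3 it was 0.17 (interval -0.31 to 0.65; adjusted p = 0.596 in edgeR) and -0.06 without replicate 3. Without that library the difference between the clones rose from 0.53 (adjusted p = 0.0808 in edgeR) to 0.76 and was called (adjusted p = 0.00695).

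Of the SOX factors, Sox9 (ENSMUSG00000000567, chr11:112673050-112678586), which directs chondrocytes and the tips of the growing lung, had 39, 32.6 and 33.4 CPM in WT cells. It had 25.4, 17.5 and 25 CPM in clone E3 and 32, 35.5 and 37.9 in clone E5. Every E3 library was below every WT and E5 library, whereas those of WT and E5 overlapped. The log2 fold change in clone E3 was -0.63 (interval -0.96 to -0.30; adjusted p = 0.00959 in edgeR), and -0.71 without replicate 3. In clone E5 it was 0.01, with an interval from -0.32 to 0.33, and the clones differed by 0.63 (adjusted p = 0.00871 in edgeR), or 0.72 without replicate 3 of E3.

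Sox4 (ENSMUSG00000076431, chr13:29132902-29137696), a factor of progenitors and of many carcinomas, had 54.3, 51.7 and 49 CPM in WT cells, 59.5, 52.9 and 64.4 in clone E3 and 38.4, 37.8 and 46.2 in clone E5. The E5 libraries were below all others, and the E3 libraries overlapped with WT. Its log2 fold change was 0.19 in clone E3 (interval -0.06 to 0.44; adjusted p = 0.23 in edgeR) and -0.34 in clone E5 (-0.59 to -0.09; adjusted p = 0.0569). Without replicate 3 of clone E3 the same value in E5, -0.33, was called (adjusted p = 0.00708), as it was with DESeq2 (adjusted p = 0.0289). The clones differed by -0.53 (adjusted p = 0.00518 in edgeR), lower in E5, and by -0.45 without that library.

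The pluripotency members gave almost no counts. Sox2 (ENSMUSG00000074637, chr3:34704554-34706610) had 2 counts in replicate 3 of clone E5 and 0 in the other 8 libraries, and Pou5f1 (ENSMUSG00000024406, chr17:35816915-35821669) had 2 counts in replicate 3 of WT cells and 0 elsewhere. Nanog (ENSMUSG00000012396, chr6:122684448-122691592) had 0 counts in all 9 libraries. A count of 0 over the 3 libraries of a line allows up to 0.0207 CPM in WT cells, 0.021 in clone E3 and 0.0205 in clone E5, as far as counting error goes. Any level below that, or in a small share of cells, was not detectable at this depth.

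**Figure D2:**
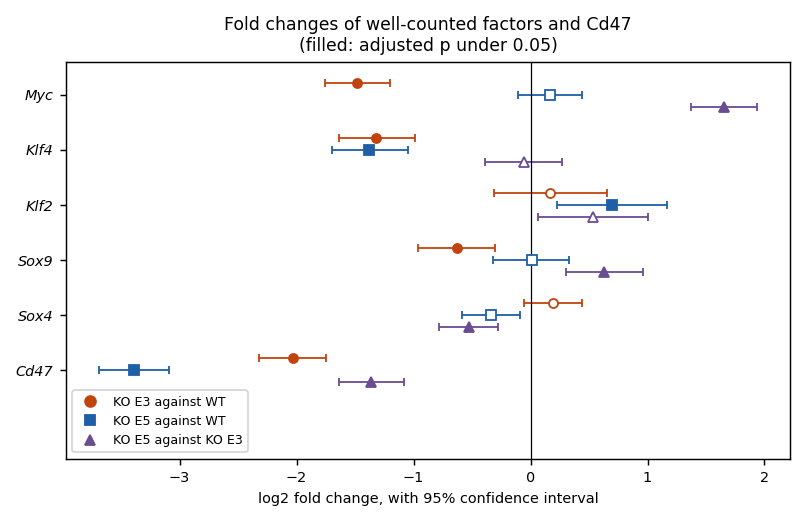
Log2 fold changes of the 5 factors with more than 1 CPM and of Cd47, with 95% confidence intervals from the edgeR fit. Circles show clone E3 against WT, squares clone E5 against WT and triangles E5 against E3, filled where the adjusted p was under 0.05. Klf4 lay at -1.32 and -1.38 in the clones, whereas Myc lay at -1.48 in E3 and 0.17 in E5.

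Levels were set side by side per kb of exon, since reads rise with the length of a transcript. In WT cells the order was Myc (223 ± 21.4 CPM per kb), Sox4 (10.8 ± 0.555), Sox9 (8.38 ± 0.83), Klf4 (5.14 ± 0.405) and Klf2 (0.778 ± 0.0813; SD, n = 3), with all other members under 0.1. The order of these 5 was the same in both clones. Each neighbour in the order of WT cells was more than its SD from the next. In clone E5, Sox4 (8.51 ± 0.979) and Sox9 (8.41 ± 0.716) lay within their SD of each other, whereas in clone E3 Sox4 (12.3 ± 1.2) was well above Sox9 (5.42 ± 1.07). The sixth rank went to Mycl in WT cells and clone E5 and to Mycn in clone E3 (0.0851 ± 0.00243 CPM per kb), where counts were few.

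The genes around Myc were examined next. Pvt1, a long non-coding RNA gene that begins 52.6 kb past the start of Myc and whose locus is known to regulate it, had 202, 198 and 183 CPM in WT cells. It had 93.9, 89.3 and 83 CPM in clone E3 and 213, 210 and 223 in clone E5. As for Myc, every E3 library was below every other, and every E5 library was above the highest WT library. Its log2 fold change was -1.13 in clone E3 (interval -1.33 to -0.93; adjusted p = 2.13e-05 in edgeR) and 0.15 in clone E5 (-0.05 to 0.35; adjusted p = 0.28), and the clones differed by 1.28 (adjusted p = 4.04e-06). Without replicate 3 of E3, Pvt1 was at -1.09 in that clone. The counts of called neighbours that follow were made with all libraries. Of the 7 genes tested within 2 Mb of Myc, 4 were called lower in clone E3 (57.1%, beside 14.7% of all genes) and 0 higher, and 2 were called lower in clone E5 (28.6%, beside 11.7%). Lratd2, at -1166 kb from Myc, was lower in both clones, at -2.80 in E3 and -3.65 in E5. Cyrib, at the far edge of the window, was at -0.32 in E3 (adjusted p = 0.0216 in edgeR) and -0.14 in E5 (adjusted p = 0.32). The other gene called lower in both clones, 9930014A18Rik, lies inside Lratd2 by the deposited positions. It had 1.74 CPM in WT cells, 0.16 in E3 and 0.0803 in E5. It passed the filter on low counts only through WT cells and so had to differ. The 2 genes called lower in E5 are thus these 2 overlapping genes.

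Around Klf4, 13 genes were tested, of which 6 were called lower in clone E3 (46.2%, beside 14.7% of all genes) and 5 in clone E5 (38.5%, beside 11.7%). The median log2 fold change of these neighbours was -0.56 and -0.44. The 5 called lower in E5 were also called lower in E3. Of these, Rad23b, a nucleotide excision repair gene at -177 kb from Klf4 (-0.46 and -0.44), and Abitram (-0.93 and -0.89) had like values in both clones. Ptpn3 was at -0.66 in E3 and -4.77 in E5, and Tmem38b had 3.22 CPM in WT cells, 1.89 in E3 and 0 in E5. Gm12514 was called higher in E5, at 2.03. Ctnnal1 was lower in clone E3 at -1.02 and at 0.06 in clone E5 (adjusted p = 0.795 in edgeR). Around Mycn, 0 of 6 genes were called in clone E3, beside 30.5% of all genes. The nearest gene tested, Ddx1, which is often amplified with MYCN in neuroblastoma, was at 0.01 in that clone. Around Klf2, 21 of 69 genes (30.4%, beside 15.7% of all genes) were called higher in clone E3 and 10 (14.5%, beside 8.96%) in clone E5. The medians there were 0.23 and 0.12. Around Sox9, 2 of 9 genes were called higher and 1 lower in clone E3 (22.2% and 11.1%, beside 15.7% and 14.7% of all genes). In clone E5, where Sox9 was at 0.01, 4 of the 9 were called lower (44.4%, beside 11.7% of all genes) and 0 higher, with a median of -0.26. Around Sox4, 1 of 8 genes was called higher and 1 lower in clone E3 (12.5% each, beside 15.7% and 14.7% of all genes). In clone E5, 1 was called higher and 0 lower (12.5% and 0%, beside 8.96% and 11.7%). DNA copy number was not measured in these data, and its part in any of these values was not tested.

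**Figure D3:**
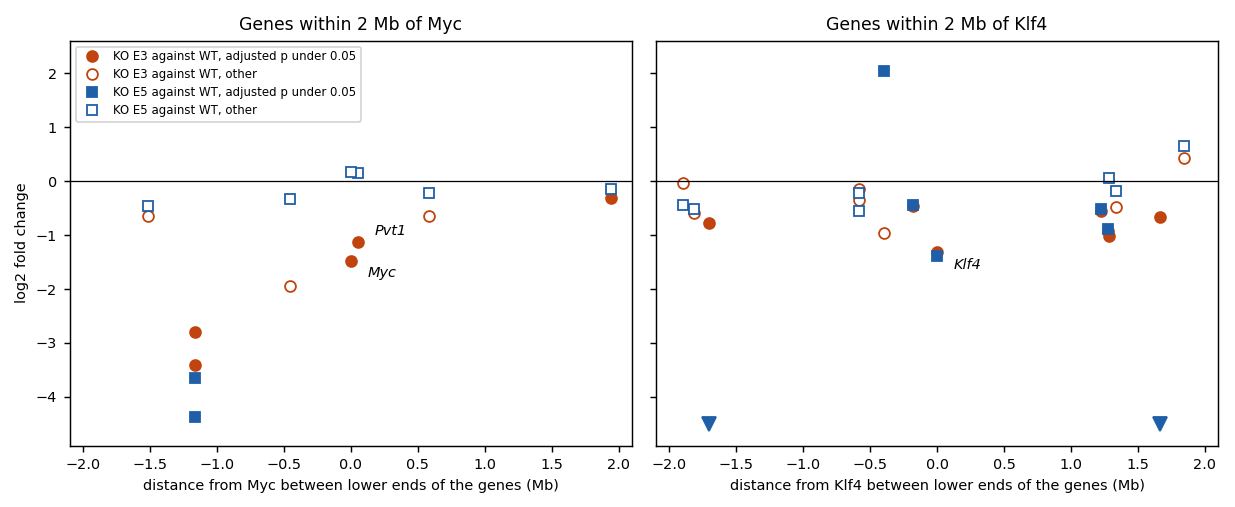
Log2 fold changes of genes within 2 Mb of Myc (left) and Klf4 (right), by the distance in Mb between the lower ends of the genes. Circles show clone E3 against WT and squares clone E5 against WT, filled where the adjusted p was under 0.05, and triangles at the lower edge mark 2 genes of clone E5 below the axis. Pvt1 and Myc lay together at -1.13 and -1.48 in clone E3 and at 0.15 and 0.17 in clone E5.

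The partners and antagonists of MYC in the MAX network came next. Of 9 tested, 2 were called higher in clone E3 (22.2%, beside 15.7% of all genes), 3 were called higher in clone E5 (33.3%, beside 8.96%) and 0 were called lower in either, where 0 had an unadjusted p under 0.05 in the lower direction and DESeq2 called 0. The median log2 fold change was 0.10 in E3 and 0.16 in E5, beside 0.01 and -0.00 for all genes. Mxd3, an antagonist that pairs with MAX, had 7.23, 5.87 and 7.34 CPM in WT cells, 24.5, 24.9 and 41 in clone E3 and 18.5, 13.7 and 12.6 in clone E5. No KO library overlapped with WT. Its log2 fold change was 2.14 ± 0.23 in E3 and 1.13 ± 0.22 in E5 (SE; adjusted p = 0.000107 and 0.00511 in edgeR). Mxd4, of the same kind, rose by 1.69 ± 0.19 in E3 and 0.79 ± 0.19 in E5, and Mxi1 rose by 0.62 ± 0.10 in E5. Without replicate 3 of E3, Mxd3 was at 1.86 and Mxd4 at 1.53 in that clone, and 3 of the 9 were called higher and 1 lower there. Both Mxd3 and Mxd4 were lower in E5 than in E3, by -1.01 and -0.89. Max itself was at -0.20 in E3 (adjusted p = 0.155 in edgeR) and 0.16 in E5 (adjusted p = 0.305), and the clones differed by 0.36 (adjusted p = 0.0196).

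Of 12 proteins that stabilise, degrade or assist MYC, 3 were called lower in clone E3 (25%, beside 14.7% of all genes) and 0 in clone E5, where 2 had an unadjusted p under 0.05, both higher, and DESeq2 called 2 higher. Those lower in E3 were Ruvbl2 (-0.63 ± 0.11) and Ruvbl1 (-0.41 ± 0.11), subunits of the complexes through which MYC recruits chromatin modifiers, and Fbxw7 (-0.32 ± 0.10), the ubiquitin ligase subunit that marks MYC for breakdown. The call for Fbxw7 was lost under 10 of the alternatives beside the fold threshold, and without replicate 3 of E3 the list gave 3 higher and 3 lower in clone E3 and 5 higher and 1 lower in clone E5.

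The 45 listed MYC target genes, mainly of ribosome production and one-carbon metabolism, were all tested. In clone E3, 27 were called lower (60%, beside 14.7% of all genes) and 0 higher, where 0 had an unadjusted p under 0.05 in the higher direction and DESeq2 called 0, and 42 of the 45 had a value below 0. The median log2 fold change was -0.49, beside 0.01 for all genes, and it lay between -0.60 and -0.42 under every alternative. Without replicate 3 of clone E3, 33 were called lower, where 21.5% of all genes were. In clone E5 8 were called lower (17.8%, beside 11.7% of all genes) and 2 higher (4.44%, beside 8.96%), with a median of -0.05. The 8 became 1 to 4 when any WT or E5 library was left out, where 7.33% to 9.13% of all genes were called lower. Without replicate 3 of E3, 14 were called lower and 7 higher, where 21.2% and 20.8% of all genes were. Between the clones, 27 were called higher in E5 (60%, beside 14.7% of all genes) and 0 lower, with a median of 0.39. This count was lowest, at 19, without replicate 1 of E3, without replicate 2 of E5 and with only the 2 groups compared. Those settings called 9.74% to 13.5% of all genes higher. The count was highest, at 40, without replicate 3 of E3, where 22.4% of all genes were called higher. These genes were listed with earlier results of the same libraries known.

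The target with the lowest value in clone E3 was Mthfd2, a mitochondrial enzyme of one-carbon metabolism. It had 407, 472 and 480 CPM in WT cells, 176, 151 and 175 in clone E3 and 303, 356 and 333 in clone E5, so that no lines overlapped. Its log2 fold change was -1.44 ± 0.11 in E3 and -0.45 ± 0.11 in E5 (SE; adjusted p = 1.89e-05 and 0.0148 in edgeR). Shmt2, which feeds serine into the same pathway, had 965, 1039 and 1013 CPM in WT cells, 407, 396 and 453 in clone E3 and 749, 917 and 1010 in clone E5. It was at -1.27 ± 0.12 in E3 and -0.17 ± 0.12 in E5 (adjusted p = 0.357 in edgeR). Mthfd2 and Shmt2 are also known targets of ATF4. Ddx21, a nucleolar RNA helicase of ribosome production, was at -1.12 ± 0.17 in E3, or -0.95 without replicate 3, and at -0.27 ± 0.17 in E5 (adjusted p = 0.308 in edgeR). Odc1, the first enzyme of polyamine synthesis and a classical MYC target, was at -0.92 in E3, and Ncl, the gene of nucleolin, was at -0.49.

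Some targets were called higher in clone E5, and some lay above 0 in clone E3. Tert, the catalytic subunit of telomerase, had 5.49, 4.69 and 5.87 CPM in WT cells, 4.1, 2.41 and 1.74 in clone E3 and 10.6, 11.6 and 11.6 in clone E5. The lines did not overlap, with a log2 fold change of -0.96 ± 0.25 in E3 and 1.08 ± 0.24 in E5 (SE; adjusted p = 0.0167 and 0.0102 in edgeR). Pes1, a ribosome biogenesis factor, was at -0.07 in E3 (adjusted p = 0.551 in edgeR) and 0.36 in E5 (adjusted p = 0.0136). Cdk4, Phb1 and Apex1 were the 3 targets above 0 in E3, between 0.04 and 0.22. Of the targets called lower in clone E5, the lowest values were those of Pus7, a pseudouridine synthase (-0.53 ± 0.15), and Rrp9, a component of the U3 particle (-0.47 ± 0.12). Of 17 alternatives, 8 lost the call of Pus7 in E5, 7 that of Rrp9 and 7 that of Pes1. An E-box stood in the upstream window of 9 of the 45 targets (20%, beside 6.26% of all promoters). Of these 9, 4 were called lower in clone E3, with a median of -0.10, and of the other 36, 23 were, with a median of -0.55.

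**Figure D4:**
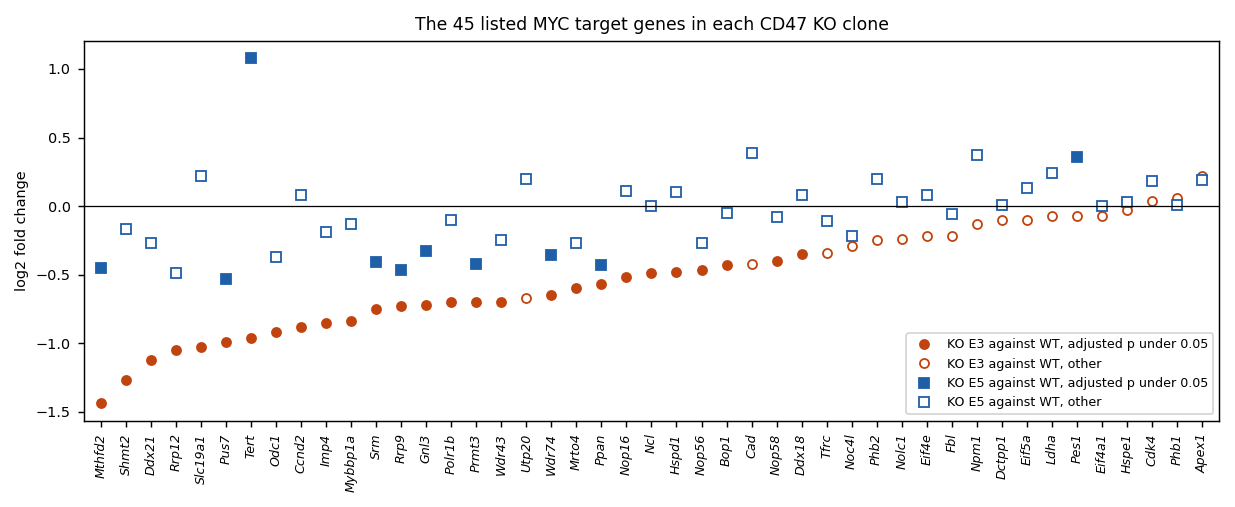
Log2 fold changes of the 45 listed MYC target genes, ordered by their value in clone E3. Circles show clone E3 against WT and squares clone E5 against WT, filled where the adjusted p was under 0.05. In clone E3, 42 of 45 lay below 0, with a median of -0.49, whereas in clone E5 the median was -0.05.

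Genes known to be repressed by MYC moved in both directions. Of 6 tested, 3 were called higher (50%, beside 15.7% of all genes) and 2 lower (33.3%, beside 14.7%) in clone E3, or 4 and 2 without replicate 3. In clone E5, 1 was called each way (16.7% each, beside 8.96% higher and 11.7% lower), or 2 higher and 1 lower without replicate 3 of E3. Cdkn1a, the gene of the cell cycle inhibitor p21, was at 0.28 ± 0.09 in E3 (adjusted p = 0.037 in edgeR, a call lost under 11 of 17 alternatives) and 0.41 ± 0.09 in E5 (adjusted p = 0.00931). Ndrg2 rose by 0.67 ± 0.19 in E3. Gadd45a, a stress response gene, fell in both clones, to -2.04 ± 0.28 (log2) in E3 and -1.20 ± 0.27 in E5, and Ndrg1 was at -1.30 ± 0.11 in E3 and -0.15 ± 0.11 in E5 (adjusted p = 0.372 in edgeR).

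Of 24 other genes of the pluripotency network that were found, 14 had at most 3 counts in every library, among them Zfp42, Sall4 and Lin28a, and 8 passed the filter. In clone E3, 3 were called lower (37.5%, beside 14.7% of all genes) and 0 higher, where 0 had an unadjusted p under 0.05 in the higher direction and DESeq2 called 0. In clone E5, 5 were called lower (62.5%, beside 11.7%) and 1 higher (12.5%, beside 8.96%), and without replicate 3 of E3, 6 and 1. Lin28b, which blocks maturation of let-7 miRNAs, had 1.8, 1.98 and 1.86 CPM in WT cells, 0.84, 1.04 and 0.572 in clone E3 and 3.99, 3.08 and 4.14 in clone E5. It was lower in every E3 library and higher in every E5 library than in WT, at -1.20 ± 0.23 and 0.99 ± 0.21 (SE; adjusted p = 0.00296 and 0.0068 in edgeR), and at -1.01 in E3 without replicate 3. Tbx3 fell in clone E5, at -0.95 ± 0.14. Dppa4 had 66 counts over the WT libraries, 10 over those of E3 and 0 over those of E5, 6.51 times more in WT cells than in E3 after scaling for depth (exact interval 3.33 to 14.2). It is among those called lower in both clones, but it passed the filter only through WT cells and so had to differ.

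In the KLF family beside the members, 12 of 15 genes were tested. In clone E3, 1 was called higher (8.33%, beside 15.7% of all genes) and 4 lower (33.3%, beside 14.7%). In clone E5, 1 was called each way (8.33%, beside 8.96% higher and 11.7% lower), which became 4 higher and 2 lower without replicate 3 of E3. Klf5, a factor of epithelial growth, was at -0.76 ± 0.12 in E3 (adjusted p = 0.00115 in edgeR) and 0.16 ± 0.12 in E5 (adjusted p = 0.386), and Klf16 and Klf6 were at -0.64 and -0.38 in E3. Klf8 had 1.34, 1.54 and 1.75 CPM in WT cells, 6.22, 6.55 and 3.32 in clone E3 and 0 in each E5 library. Its summed counts, scaled for depth, were 3.51 times those of WT cells in E3, where replicate 3 was the lowest, and at least 75.2-fold lower in E5.

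Of 16 other SOX genes, 8 had at most 3 counts in every library and 4 were tested, so that each is 25% of the list. In clone E3, 2 were called lower (50%, beside 14.7% of all genes). In clone E5, 1 was called higher and 2 lower (25% and 50%, beside 8.96% and 11.7%). Without replicate 3 of E3, 2 were called lower in E3, and 2 each way in E5. Sox5, which works with Sox9 in cartilage, had 8.51, 8.94 and 9.56 CPM in WT cells, 0.5, 0.38 and 0.242 in clone E3 and 11.1, 12.5 and 14.9 in clone E5. It was lower in E3 by a log2 fold change of -4.57 ± 0.22 (adjusted p = 1.02e-06 in edgeR), or -4.34 without replicate 3, and its value in E5 was 0.51 ± 0.16 (adjusted p = 0.0521). Sox11 had 450 counts over the WT libraries, 10 over those of E3 and 0 over those of E5, at least 152-fold lower in E5. It is among those called lower in both clones, but it passed the filter only through WT cells and so had to differ. Sox12 was at -0.03 in E3 and rose by 0.52 ± 0.09 in E5. Of 13 other POU genes, 9 had at most 3 counts in every library and 4 were tested. In E3, 1 was called higher (Pou4f1, 1.17 ± 0.25), 25% beside 15.7% of all genes. In E5, 1 was called higher and 2 lower (25% and 50%, beside 8.96% and 11.7%). There Pou6f1 was at 0.70 ± 0.22 (adjusted p = 0.0467 in edgeR), a call lost under 10 of 17 alternatives. Without replicate 3 of E3, 2 each way were called in E5.

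Among markers used for tissue and cancer stem cells, 12 of 19 were tested, with 1 called higher and 1 lower in clone E3 (8.33% each, beside 15.7% and 14.7% of all genes) and 3 each way in clone E5 (25% each, beside 8.96% and 11.7%). Leaving out replicate 3 of E3, these were 2 higher and 1 lower in E3 and 4 each way in E5. Cd24a, among those higher in E5, had 2, 1 and 34 counts over the WT, E3 and E5 libraries, so it passed the filter only through E5 and had to differ. Abcg2, the drug efflux pump of side population cells, was higher in both clones, by 0.67 ± 0.11 in E3 and 0.44 ± 0.11 in E5 (SE; adjusted p = 0.00149 and 0.0199 in edgeR), although 8 of 17 alternatives lost the call in E5. Itga6 fell in E3, at -1.43 ± 0.20, or -1.20 without replicate 3, and Nes, Ly6a and Eng fell in E5, at -2.61 ± 0.17, -1.30 ± 0.23 and -0.90 ± 0.09. Kit, Lgr5 and Aldh1a1 had at most 3 counts in every library. Markers of cell identity moved beside these values: Krt8 was at -2.33 in E3 and 0.95 in E5, and Vim at 0.40 and 0.66. Of 10 mesenchymal markers, 4 were called higher and 1 lower in E3 (40% and 10%, beside 15.7% and 14.7% of all genes). In E5, 2 were called higher and 1 lower (20% and 10%, beside 8.96% and 11.7%). Without replicate 3 of E3 these were 4 and 2, and 3 and 2. Snai2 had 112, 65.3 and 109 CPM in WT, E3 and E5, and Fn1 had 1929, 1097 and 1220. Vim, the largest part of the mesenchymal sum, had 4166, 5480 and 6571. Krt8 and Krt18 made up nearly all of the epithelial and lung sum. They had 191 and 264 CPM in WT cells, 38.1 and 125 in E3 and 370 and 558 in E5. Ocln, the next highest of that list, had 12, 9.33 and 11.3 CPM in WT, E3 and E5. The summed level of the 12 epithelial and lung markers was 462 to 471 CPM in WT cells, 136 to 208 in E3 and 908 to 969 in E5, and that of the 10 mesenchymal markers was 6632 to 7142, 6931 to 7989 and 8067 to 9430. Their part in the values of the members was not tested.

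For each member that was called, the 3 genes with the most similar profile over the 9 libraries were found among 10392 genes, by the root mean square difference of centred log2 CPM. For Myc these were Cdk18 (0.111), Gprc5a (0.141) and Atp6v0e2 (0.158). For Klf4 they were Wnt7b (0.126), Cdr2l (0.128) and Fads3 (0.136), and Wnt7b, a WNT ligand of the lung, was at -1.11 in clone E3 and -1.26 in clone E5. For Sox9 they were Sfxn4 (0.0847), Tgif1 (0.0996) and Akap7 (0.0997), for Sox4 Gpr180 (0.0704), Parp10 (0.0706) and Apobec3 (0.0767), and for Klf2 Hpcal1 (0.0954), L3hypdh (0.101) and Hoxa11os (0.107). The distances were greater for Mycn, whose nearest genes were Pwwp3b (0.335), Angpt1 (0.442) and Capn6 (0.445). The measure describes these 9 libraries, which share lines and depth.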

How the data were processed

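RNA-seq libraries of LLC cells (3 of WT, 3 of CD47 KO clone E3 and 3 of clone E5) were grouped by their labels. Directional libraries of polyadenylated RNA were read from both ends, and per the labels and the submitters' processing notes the authors used FastQC, Trimmomatic and STAR with GRCm39, and deposited raw counts per gene, neither normalized nor pooled. The counter, strand setting and annotation release are not given in the sources used here, so counts of overlapping or antisense genes are uncertain. In the GENCODE annotation used here, 50267 of 50813 gene IDs were found, 56.2% with the same start and end. Sox2 lies inside Sox2ot, and lncRNAs opposite Sox4 and Sox9 had 31 counts each. In that annotation Klf2 overlaps Eps15l1 on the opposite strand, with no exon in common, and Eps15l1 had 34293 counts over the 9 libraries. By the deposited positions Eps15l1 begins 22 kb past the start of Klf2, and they do not overlap. Any part of Eps15l1 reads in the Klf2 counts was not tested.

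From the deposited counts, filterByExpr (at least 10 counts in enough libraries and 15 in total) chose the genes, which were scaled by TMM and tested with edgeR 4.0.16 in R 4.3.3 by its quasi-likelihood test. The coefficient of variation between replicates was 14.8%. On counts simulated for clone E3 against WT with 14593 genes, 70 of 100 genes changed by 1 on the log2 scale and 95 of 100 changed by 2 were recovered, with 11 false calls. The simulation changed 200 genes and gave all lines the same spread per gene. In the data 30.5% of genes were called in clone E3 and its replicate 3 stood apart, so these rates need not hold there. Levels per kb used the union of exons. Intervals and floors of counts cover counting error only, and a floor is 3 counts.

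The members, the lists and the rule for named genes were chosen with earlier results of these data known. Named are all members, up to 3 genes called with the most positive and most negative values of each list with an average log2 CPM above 1, and 3 genes of most similar profile. Not every gene that the rule covers is reported. Genes near members, and Max, Odc1, Ncl, Cdk4, Phb1, Apex1, Sox11, Dppa4, Pou4f1, Cd24a, Fn1, Col1a1, Col1a2 and the genes at the floor, were chosen after their values were seen. Same-numbered libraries did not deviate together (r from -0.172 to 0.0472). The alternatives were DESeq2 1.42.0, its size factors, upper-quartile scaling, other filters, only the 2 groups compared, a replicate block, the fold threshold of the study and each library left out. List counts without replicate 3 of clone E3 were added after seeing the data.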

Additional observations from a re-analysis of the deposited data

Results flagged for a closer look

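The levels of Myc, Sox9 and Sox4 differed between the clones by the direct test of clone E5 against clone E3 in edgeR. Myc differed by 1.65 on the log2 scale: it was lower in clone E3 and was not called in clone E5. Sox9 differed by 0.63 in the same way. Sox4 differed by -0.53, with values of 0.19 in E3 and -0.34 in E5 of which neither was called against WT. Mycn was also past the threshold, at -7.25 in the fit, but it passed the filter on low counts only through clone E3 and so had to differ, which gives no support. That value depends on the prior count, since all E5 libraries held 0 counts, and the bound from the floor of 3 counts was at least 19.2-fold. The comparison was between 1 clone and 1 other clone, so a difference between clones and one between edits cannot be told apart.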

How the results depend on the processing

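Over 17 alternatives, Myc in clone E3 lay between -1.57 and -1.38, and Klf4 between -1.43 and -1.24 in clone E3 and between -1.47 and -1.26 in clone E5, all called. The 4 members called in clone E3 ranged from 3 (with at least 10 counts in every library, where Mycn is not tested, or with the study's fold threshold) to 5 (with no filter), and were 4 whichever library was left out. The 2 called in clone E5 fell to 1, Klf4, with upper-quartile scaling, with the replicate block and with the fold threshold, and were 1 to 3 when a library was left out. The 4 called between the clones fell to 2, Myc and Mycn, with the fold threshold, and were 4 to 5 when a library was left out. Replicate numbers do not pair the libraries, and with the replicate block the members called were 4 in clone E3, 1 in clone E5 and 4 between the clones. Sox9 in clone E5, at 0.01, turned to -0.01 with upper-quartile scaling and with no filter, to -0.00 with at least 10 counts in every library, and to between -0.05 and -0.00 when WT replicates 2 or 3 or E5 replicates 2 or 3 were left out. Klf4 between the clones turned to 0.05 and 0.06 without replicate 1 of E3 or E5 (-0.15 to 0.06 over the libraries left out), and Klf2 in clone E3 to -0.06 without replicate 3 (-0.06 to 0.36). Per kb of the longest transcript, Myc was 256, 91.5 and 288 CPM in WT, E3 and E5, Mycn 0.116 in E3 and Klf2 1.35 in E5, with the same order of members. MYC targets called in clone E5 fell from 8 lower and 2 higher to 1 and 0 without WT replicate 2 (7.33% and 4.52% of all genes). They reached 16 and 8 with only the 2 groups compared (23.3% and 23.5% of all genes). Upper-quartile scaling moved the median of all genes to 0.09 in clone E3. Depth limits Mycn, Mycl, Sox2, Pou5f1 and Nanog.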
